A study of Saccharomyces cerevisiae with 20 samples.

Results

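Messenger RNA of 10 genes of sulfate assimilation and methionine synthesis was followed in budding yeast, Saccharomyces cerevisiae, with and without SET1. The members were MET3 (YJR010W), MET14 (YKL001C), MET16 (YPR167C), MET10 (YFR030W), MET5 (YJR137C), MET17 (YLR303W), MET6 (YER091C), MET2 (YNL277W), SAM1 (YLR180W) and SAM2 (YDR502C). They were taken by systematic name from the 6532 features of the deposited tables, and 9 of the 10 had enough reads to be tested. Libraries were made by PAT-seq, which reads the 3′ end of messenger RNA together with part of its poly(A) tail. The wild type (WT) is labelled W303a. The other strain is labelled delta_set1 and is written set1Δ here, and it lacks Set1, the enzyme of the COMPASS complex that methylates lysine 4 of histone H3. No other genotype is given in the labels, and no treatment other than the arrest. Per the labels, both strains grew at 30 °C in rich YPD medium, were arrested before budding with 5 µg/ml of the mating pheromone α-factor for about 2 h, and were released by washing into fresh medium. Each strain gave 10 libraries: an asynchronous culture, the arrested cells at 0 min, and a sample every 15 min up to 120 min. Each strain and time point has 1 library, and the labels name no second culture. All p-values therefore measure the spread between time points, not between cultures, and a feature of 1 culture cannot be told apart from an effect of the deletion.

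Yeast takes up sulfate, activates it, reduces it to sulfite and then to sulfide, and joins the sulfide to a carbon chain to make homocysteine. Homocysteine is methylated to methionine, and methionine is converted to S-adenosylmethionine, the donor of the methyl groups that Set1 and other methyltransferases transfer. The genes of this route are known to be activated together by the transcription factor Met4, which is brought to promoters by Cbf1 or by Met31 and Met32, and which the ubiquitin ligase subunit Met30 holds back when sulfur amino acids are plentiful. Rich medium supplies methionine, and the route is known for low activity there.

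The binding cores of these factors are shown first, since they are the sequence feature that the members are best known to share. In the 300 bases before each annotated start codon, both strands were searched for CACGTG, the core bound by Cbf1, and for AACTGTGG, the core bound by Met31 and Met32. The cores do not overlap each other. CACGTG was found before 4 of the 10 members (MET14, MET16, MET10 and MET17), against 3.57% of 6001 protein-coding genes. AACTGTGG was found before 4 of 10 (MET3, MET17, SAM1 and SAM2), against 1.03% of the same genes. MET5, MET6 and MET2 held neither in this window. MET17 held both, and MET10 held CACGTG at 2 positions. The stretches below run 5′ to 3′ on the strand of the gene, with the core in capitals, and were read from the yeast reference genome R64, which is the build sacCer3. In MET3 the core lies on the opposite strand and is printed as its reverse complement.
MET3: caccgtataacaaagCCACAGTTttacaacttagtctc
MET14: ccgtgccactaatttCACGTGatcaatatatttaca
MET16: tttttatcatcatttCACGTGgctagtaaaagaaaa
MET10: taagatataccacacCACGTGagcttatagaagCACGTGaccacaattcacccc
MET17: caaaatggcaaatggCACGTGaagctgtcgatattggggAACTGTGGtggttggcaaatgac
SAM1: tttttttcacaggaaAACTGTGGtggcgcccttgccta
SAM2: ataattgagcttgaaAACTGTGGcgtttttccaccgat
The MET3 stretch is chrX:455971-456008 on the plus strand, and the MET14 stretch is chrXI:439593-439628 on the minus strand. The MET16 stretch is chrXVI:877790-877825 on the minus strand. The MET10 stretch is chrVI:213048-213101 on the plus strand, with cores at positions -249 to -244 and -231 to -226, counted back from the first base of the start codon. The MET17 stretch is chrXII:732227-732288 and the SAM1 stretch is chrXII:514971-515008, both on the plus strand. The SAM2 stretch is chrIV:1454741-1454778 on the minus strand. Of 40 other genes of sulfur and methionine metabolism, listed by their known roles, 10 (25%) held CACGTG and 9 (22.5%) held AACTGTGG. A match is a run of letters and was not tested for binding.

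The 20 libraries held 476565 to 2413354 reads assigned to features, with a median of 1524255. The members together took 0.0274% to 0.160% of the reads of a library. Reads that carried a poly(A) tail made up 32.2% to 91.7% of a WT library and 52.4% to 76.3% of a set1Δ library, with the lowest value in the WT library at 120 min. The WT libraries at 105 and 120 min also had the lowest scaling factors (0.817 and 0.621). The shallowest library was set1Δ at 30 min. Reads of SET1 itself came to 44.3 ± 14.7 CPM, that is reads scaled to library size (SD, n = 10) in WT and 9.78 ± 2.82 in set1Δ, lower in set1Δ at 10 of 10 time points (log2 difference -2.16 ± 0.13 SE, edgeR adjusted p = 6.36e-08). SET1 kept 6 to 35 reads per library in set1Δ. The deleted stretch of the gene is not given in the labels.

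MET17, which encodes the O-acetylhomoserine sulfhydrylase that joins sulfide to O-acetylhomoserine, had 0 reads in all 20 libraries of both strains. At 3 reads as the limit that a count of 0 allows, this leaves at most 1.22 to 5.73 CPM in a single library and 0.0992 CPM over all libraries together, for counting error only. Its coding sequence is at chrXII:732542-733876, and the annotation places the gene YLR302C over part of it. LEU2 had 1 read in all WT libraries together and 2 in all set1Δ libraries, and URA3 had 9 and 16. TRP1 had 49 to 177 reads per WT library and 30 to 143 per set1Δ library, and ADE2 had 17 to 117 and 12 to 98. As background, W303 strains are known to carry small mutations in LEU2, URA3, TRP1 and ADE2 with MET17 intact, while BY4741 strains lack the coding regions of LEU2, URA3 and MET17. MET17 reads were absent and LEU2 and URA3 reads were few in both strains, while the WT label is W303a. Whether the strain background is the labelled one was not tested. How reads in overlapping genes were counted is not given in the sources used. Of genes specific to a mating type, the a-cell receptor gene STE2 had 203 to 1267 reads per WT library and 39 to 1578 per set1Δ library, and the α-cell pheromone gene MF(ALPHA)1 had at most 3 and 15. The α-cell agglutinin gene SAG1 had 9 to 38 and 15 to 45, so low counts of an α-cell gene were present in every library.

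Over all 10 time points, the members called between strains were MET10 and MET5, the subunit genes of sulfite reductase. Of the 9 members tested, these 2 were higher in set1Δ, 7 did not pass the test and 0 were lower. Among all 5060 features tested, 8.44% were called higher and 10.5% lower, which is 19.0% in either direction. The 2 of 9 members called are near that share and rest on few genes. The median log2 difference was 0.25 over the members and -0.01 over all features tested. The strain difference was tested with edgeR's quasi-likelihood test with the time point as a factor, and p-values were adjusted over all 5060 features. At an unadjusted edgeR p under 0.05, 4 of the 9 members differed, 2 in each direction. Of all 5060 features, 1711 did, 795 higher and 916 lower.

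**Figure D1:**
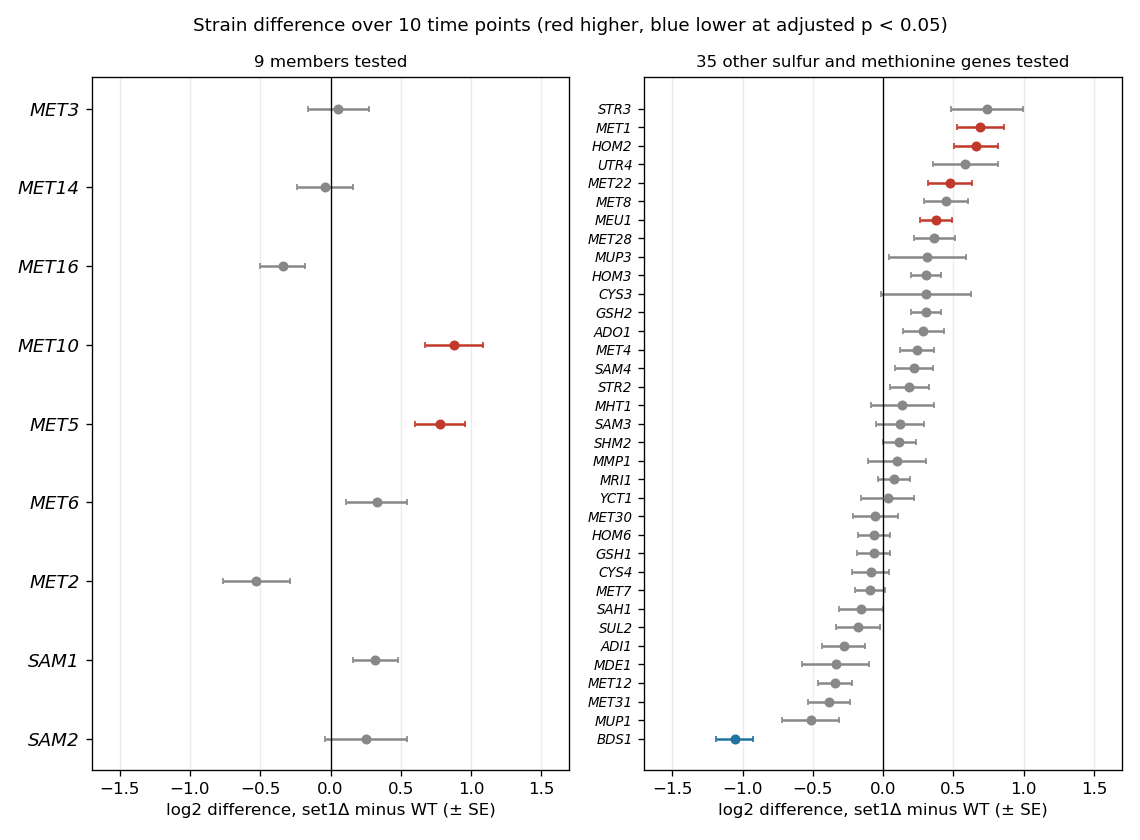
Log2 difference between strains, set1Δ minus WT, with its SE over 10 time points, for the 9 members tested on the left and 35 other sulfur and methionine genes on the right. Red marks genes called higher and blue genes called lower at an edgeR adjusted p below 0.05. MET10 (0.88) and MET5 (0.78) are the called members, and BDS1 (-1.06) lies farthest to the left.

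The genes lie on sulfate's route into methionine, and each has 1 coding exon and is given by its coding sequence in sacCer3. The first 3 members activate sulfate and reduce it. MET3 (chrX:456239-457774, plus strand) encodes ATP sulfurylase, which joins sulfate to ATP. MET3 ran from 17.7 CPM in the asynchronous culture through a median of 37.9 to 45.3 at 105 min in WT, and from 19.0 in the asynchronous culture through a median of 29.9 to 120 CPM at 45 min in set1Δ. The strains overlapped, and the log2 difference was 0.06 ± 0.22 (edgeR adjusted p = 0.885). In set1Δ the libraries at 45 and 60 min (71.9 CPM) stood above the WT range, and the other 8 lay within it.

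MET14 (chrXI:438777-439385, minus strand) encodes adenylylsulfate kinase, which adds a second phosphate to the activated sulfate. Its level was 22.2 (120 min) to 67.4 CPM (30 min) in WT with a median of 51.5, and 20.8 (asynchronous) to 143 CPM (45 min) in set1Δ with a median of 37.5. The groups overlapped, set1Δ was lower at 7 of 10 time points, and the log2 difference was -0.04 ± 0.20 (edgeR adjusted p = 0.915). Without the 45 min libraries it was -0.22.

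MET16 (chrXVI:876847-877632, minus strand) encodes the reductase that releases sulfite. It was measured at 6.92 (asynchronous) to 26.6 CPM (120 min) in WT with a median of 21.1, and at 10.4 (75 min) to 21.0 CPM (30 min) in set1Δ with a median of 14.9. The groups overlapped although set1Δ was the lower strain at 9 of 10 time points, and the log2 difference of -0.34 ± 0.16 did not pass (edgeR adjusted p = 0.146). The exception was the asynchronous culture, and without it MET16 was called lower (edgeR adjusted p = 0.0490). These values rest on 10 to 52 reads per WT library and 11 to 33 per set1Δ library.

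Sulfite reductase, which turns sulfite into sulfide, is built of an α subunit encoded by MET10 (chrVI:213312-216419, plus strand) and a β subunit encoded by MET5 (chrX:678957-683285, minus strand), and carries siroheme as a cofactor. MET10 had 14.3 CPM at its lowest in WT (90 min), a median of 32.5 and 57.7 at its highest (120 min). In set1Δ it had 26.4 at its lowest (asynchronous), a median of 48.4 and 127 at its highest (45 min). Means were 31.8 ± 11.4 and 60.0 ± 29.6 (SD, n = 10 libraries each). The groups overlapped, but set1Δ was above WT at the same time in 9 of 10 cases, from a ratio of 1.07 in the asynchronous culture to 3.72 at 60 min, and below it at 120 min (0.762). The log2 difference was 0.88 ± 0.21 (edgeR adjusted p = 0.00719).

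MET5 had 12.2 CPM (120 min), a median of 16.8 and 28.0 (15 min) in WT, and 21.1 (15 min), a median of 28.1 and 71.9 (45 min) in set1Δ. Means were 18.7 ± 5.36 and 32.9 ± 14.6 (SD, n = 10 libraries each). Here too the groups overlapped, and set1Δ was higher at 9 of 10 time points, with 15 min as the exception (ratio 0.752). The log2 difference was 0.78 ± 0.18 (edgeR adjusted p = 0.00564). MET10 and MET5 stayed called under each of the 19 alternatives tried for the strain difference, with log2 differences of 0.75 to 1.09 and 0.62 to 0.92.

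MET1 and MET8 encode the enzymes that make siroheme. MET1 was higher in set1Δ at 9 of 10 time points, with 17.3 to 25.7 CPM in WT (median 19.5) and 17.6 to 74.3 in set1Δ (median 30.3). Its log2 difference was 0.69 ± 0.17 (edgeR adjusted p = 0.00829), and it was no longer called without the libraries at 45, 105 and 120 min (0.0927). MET8 had a log2 difference of 0.45 (edgeR adjusted p = 0.0547) and did not pass.

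The next members make methionine. MET2 (chrXIV:117349-118809, plus strand) encodes homoserine O-acetyltransferase, which makes the carbon acceptor of sulfide, and MET6 (chrV:339864-342167, minus strand) encodes the cobalamin-independent methionine synthase, which methylates homocysteine. MET6 ran from 39.96 CPM (120 min) through a median of 176 to 317 (15 min) in WT, and from 149 (90 min) through a median of 174 to 603 (45 min) in set1Δ. The groups overlapped, and the log2 difference was 0.33 ± 0.22 (edgeR adjusted p = 0.304). With 120 min left out it was 0.18, with 45 min left out 0.21, and with 45, 105 and 120 min left out 0.016.

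MET2 ran from 31.6 CPM (30 min) through 77.9 to 176 (120 min) in WT, and from 22.1 (asynchronous) through 45.2 to 146 (45 min) in set1Δ. It was lower in set1Δ at 8 of 10 time points, the groups overlapped, and the log2 difference of -0.53 ± 0.24 did not pass (edgeR adjusted p = 0.130). MET2 was called lower without the 45 min libraries (edgeR adjusted p = 0.0309) and when the fit held each library's poly(A) percentage as a further term (0.00548). The difference was smaller with poly(A) reads alone (-0.25, edgeR adjusted p = 0.385), without 105 and 120 min (-0.30, 0.401) and without 120 min (-0.35, 0.261). The highest WT value, at 120 min, came from 159 reads of which 4 carried a poly(A) tail (2.52%), in the library with the lowest poly(A) share.

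SAM1 (chrXII:515262-516410, plus strand) and SAM2 (chrIV:1453310-1454464, minus strand) encode S-adenosylmethionine synthetases. SAM1 had 68.8 (120 min) to 249 CPM (105 min) in WT with a median of 175, and 125 (90 min) to 342 (45 min) in set1Δ with a median of 201. SAM2 had 8.88 (120 min) to 38.4 CPM (90 min) in WT with a median of 19.8, and 7.64 (30 min) to 43.8 (45 min) in set1Δ with a median of 27.0. Strains overlapped for both, with log2 differences of 0.32 ± 0.16 for SAM1 (edgeR adjusted p = 0.168) and 0.25 ± 0.29 for SAM2 (0.578). Without 120 min they were 0.21 and 0.11. For SAM2 the value without a single time point ran from 0.11 to 0.43. The coding sequences of this pair are 82.8% identical over 1155 aligned bases, whereas the 150 bases after the stop codons, where 3′-end reads are more likely to fall, are 44.2% identical. How reads that match both were counted is not given in the sources used, and the split between the pair is uncertain.

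**Figure D2:**
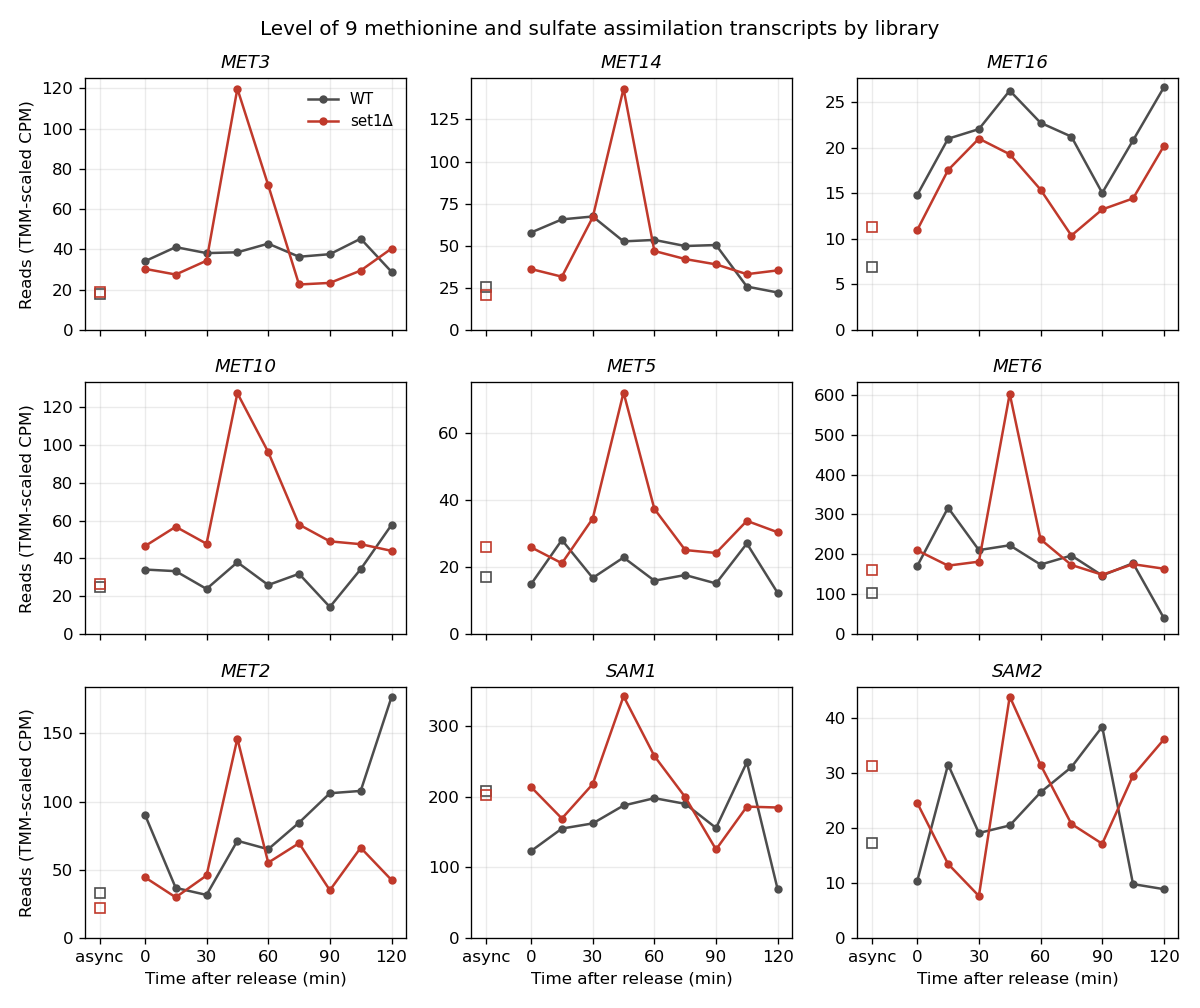
CPM of the 9 members with reads against time after release, one panel per gene, with WT in grey and set1Δ in red and the asynchronous cultures as open squares on the left. Each point is 1 library. In set1Δ the highest point lies at 45 min in every panel except MET16.

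The members stood out most in the set1Δ library at 45 min. It was the highest of the 10 set1Δ libraries for 8 of the 9 members, all but MET16, while 6.36% of all features tested had their highest set1Δ value there. In WT, 45 min was the highest library for 0 of 9 members and 4.11% of all features. The members summed to 1617 CPM in set1Δ at 45 min, against 475 to 849 CPM in the other 9 set1Δ libraries and 442 to 729 CPM in WT. This pattern was noticed after the values were seen, and it rests on 1 library.

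At 45 min, 7 of the 9 members were at least 2-fold higher in set1Δ than in WT and 0 were 2-fold lower, where 3.85% of all features were 2-fold higher and 5.77% 2-fold lower. MET10 was at 38.0 CPM in WT and 127 in set1Δ, MET5 at 22.8 and 71.9, and MET3 at 38.5 and 120. MET14 was at 52.6 and 143, MET6 at 223 and 603, MET2 at 71.3 and 146, and SAM2 at 20.4 and 43.8. SAM1, at 187 and 342, fell short of the 2-fold limit, and MET16, at 26.3 and 19.3, lay on the other side. The median log2 difference of the members was 1.44, and that of all features was 0.00. The 2 libraries were of similar depth (1604577 reads in WT and 1724549 in set1Δ), with poly(A) shares of 77.1% and 66.8%.

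The set1Δ library at 60 min was also high for several members. Against the mean of 30 and 60 min in the same strain, 45 min was at least 1.5-fold higher for 7 of 9 members in set1Δ, where 5.10% of all features were, and for 1 of 9 (MET10) in WT, where 3.50% were. The 45 min library was picked because the members were high in it, so this ratio adds no separate support. Its neighbour at 30 min in set1Δ was the shallowest library (476565 reads). The summed CPM at 60 min, 849, was the next highest of the 20 libraries. At 60 min in set1Δ, MET3 (71.9 CPM), MET10 (96.3), MET5 (37.2) and SAM1 (257) lay above every WT library, SAM1 only narrowly (highest WT value 249). The share of all features that did so is not given, so this is not shown to be particular to the members. MET14 (46.9), MET16 (15.4), MET6 (238), MET2 (55.2) and SAM2 (31.5) lay within the WT range.

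Some other genes of the pathway were also high in set1Δ at 45 min, with a median log2 difference of 0.39 over the 35 tested. Of the 35, 13 had their highest set1Δ library at 45 min, where 6.36% of all features did. The genes at least 2-fold over WT numbered 7, where 3.85% of all features were. They were MUP3 (5.11-fold), a low-affinity methionine permease gene, STR3 (3.53-fold), which encodes a cystathionine β-lyase, and MET1 (2.89-fold). The list went on with MMP1 (2.86-fold) and SAM3 (2.02-fold), which encode the S-methylmethionine and S-adenosylmethionine permeases. MHT1 (2.26-fold) encodes a methyltransferase that recycles homocysteine with S-methylmethionine, and UTR4 (2.26-fold) encodes an enzyme of methionine salvage. The genes below WT at that time were STR2 (ratio 0.970), MET7 (0.889), YCT1 (0.744), BDS1 (0.736), SAH1 (0.624) and MET12 (0.598).

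**Figure D3:**
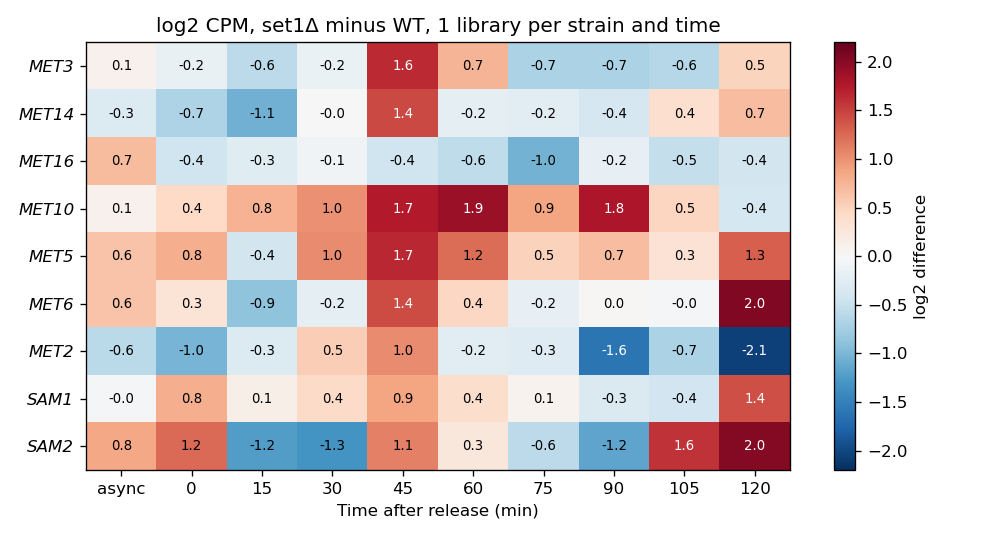
Log2 difference in CPM between strains, set1Δ minus WT, for each of the 9 members at each time point, with 1 library per strain and time. Red is higher in set1Δ and blue lower, with the value printed in each cell. The 45 min column is red for 8 members, and the MET16 cell in it is -0.4.

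Change over the release was tested per strain, with edgeR and a spline of time with 5 degrees of freedom over the 18 libraries after release. In set1Δ 5 of 9 members were called: MET3 (edgeR adjusted p = 1.04e-04), MET14 (0.00195), MET6 (0.0245), MET10 (0.0247) and MET5 (0.0256). Of all features, 15.7% were called in that test. With the 45 min libraries left out, 0 of 9 members were called by edgeR against 7.11% of all features, and MET3 alone (1 of 9) had an unadjusted p under 0.05, with an edgeR adjusted p of 0.0573. With a spline of 4 degrees of freedom MET3 was the 1 member called, and with 3 it was MET14. When other single time points were left out, MET3 stayed called each time and MET14 each time but 30 min. The MET5 call was lost without 15 or 75 min, the MET6 call without 0, 15, 30 or 75 min, and the MET10 call without 60, 75, 90, 105 or 120 min. DESeq2 called MET3, MET14, MET6 and MET2 (adjusted p = 0.0161), and not MET10 (0.0583) or MET5 (0.134). No share over all features is given for DESeq2, for the other splines or for the unadjusted p without 45 min.

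In WT 3 of 9 members changed by the same edgeR test, MET2 (adjusted p = 0.0114), MET6 (0.0209) and SAM2 (0.0492), while 39.1% of all features were called. The highest WT libraries after release were at 120 min for MET2, at 15 min for MET6 and at 90 min for SAM2. Their lowest were at 30 min for MET2 and at 120 min for the other two. The WT libraries at 105 and 120 min had the lowest scaling factors, and 120 min stood apart in poly(A) share (32.2%, against 51.3% at 105 min). Without the 105 and 120 min libraries, 0 of 9 were called in WT by edgeR against 25% of all features, and 0 had an unadjusted p under 0.05. With a spline of 4 or of 3 degrees of freedom 0 of 9 were called in WT too, with 0 and 2 at an unadjusted p under 0.05. The WT counts were 1 to 4 when 1 time point was left out. Among these leave-outs a share over all features is given only for 45 min (29.7%), and none is given for the other splines. The MET2 call was lost without 0, 15 or 30 min, the MET6 call without 0, 15, 30 or 120 min, and the SAM2 call without any 1 of 0, 45, 60, 75, 90, 105 or 120 min. SAM2 was also not called with DESeq2 (adjusted p = 0.106) or, in edgeR, with RLE size factors (0.0584).

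The shape of the profile differed between strains for 2 of 9 members, MET3 (edgeR adjusted p = 0.00917) and SAM2 (0.0195), where 12.4% of all features were called. MET3 was high in set1Δ at 45 and 60 min and nearly level in WT, with a ratio of 1.57 between its highest and lowest WT library after release and 5.31 in set1Δ. For SAM2, set1Δ was below WT at 15, 30, 75 and 90 min and above it at the other 5 times after release. Several of these SAM2 values rest on few reads: 4 in set1Δ at 30 min, 7 in WT at 0 min, and 8 each in WT at 105 and 120 min. By edgeR, 0 of 9 were called without the 45 min libraries (6.36% of all features), with 4 at an unadjusted p under 0.05, and 1 of 9, MET3, without 105 and 120 min (2.96%). The MET3 call was also lost without 75 or 90 min, and the SAM2 call without 75 or 120 min. Leaving out 60, 90 or 105 min raised the count of members to 4, 4 and 6. For these leave-outs, and for the unadjusted p without 45 min, no share over all features is given. The counts are therefore not a result particular to the members. DESeq2 called 3 members, MET3 (adjusted p = 0.0163), MET6 (0.00373) and MET2 (0.00576), and gave no adjusted p for SAM2 or MET16. Its share over all features is not given either.

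Arrest with α-factor was compared with the asynchronous cultures, using 1 library per strain on each side and the spread of the whole edgeR fit. No member passed (0 of 9, and 0 with DESeq2), where 4.60% of all features were called (2.77% higher and 1.84% lower). MET2 had a log2 difference of 1.23 ± 0.53 and MET14 one of 0.97 ± 0.45, with unadjusted edgeR p of 0.0349 and 0.0458. These were the 2 members with an unadjusted p under 0.05, where 699 of all 5060 features had one, 383 higher and 316 lower. MET2 was at 33.3 CPM before and 90.5 CPM in arrest in WT, and at 22.1 and 44.5 CPM in set1Δ. From 0 to 15 min after release 0 of 9 members passed at an adjusted p with edgeR or DESeq2, where edgeR called 1.68% of all features. At an unadjusted edgeR p under 0.05 it was 0 of 9 too, where 545 of all 5060 features passed.

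Of the 35 other pathway genes tested, 4 were higher and 1 was lower in set1Δ over all time points, with a median log2 difference of 0.12. Among all features 8.44% were higher and 10.5% lower, so the count higher is near that share and the count lower is below it. HOM2, which encodes aspartate semialdehyde dehydrogenase of the homoserine branch, had 258 to 540 CPM in WT and 429 to 873 in set1Δ. It was higher at 9 of 10 time points, with a log2 difference of 0.66 ± 0.16 (edgeR adjusted p = 0.00705). MET22, which encodes the phosphatase that removes the by-product of sulfate reduction, had 0.48 ± 0.15 (edgeR adjusted p = 0.0398). MEU1, which encodes the first enzyme of methionine salvage, had 0.37 ± 0.11 (0.0290). Each of the last 2 calls was lost in 6 of the 10 cases where 1 time point was left out, with an edgeR adjusted p of up to 0.0808 for MET22 and 0.0630 for MEU1. Both were also lost without the time factor that pairs libraries of equal time (0.310 and 0.0834).

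BDS1, which encodes an arylsulfatase that frees sulfate from sulfate esters, was the gene called lower. It had 33.3 to 122 CPM in WT and 18.2 to 36.8 in set1Δ, overlapping only at the low end of WT, and was lower in set1Δ at all 10 time points (log2 difference -1.06 ± 0.13, edgeR adjusted p = 6.87e-05). BDS1 was also the one pathway gene called in arrest, with a log2 difference of 1.48 ± 0.29 over the asynchronous cultures (edgeR adjusted p = 0.00542). The regulators did not pass for the strain difference: MET4 at 0.24 (edgeR adjusted p = 0.166), MET28, which encodes a cofactor of Met4, at 0.37 (0.0873), MET31 at -0.39 (0.0816) and MET30 at -0.06 (0.839). CBF1 and MET32 had too few reads to be tested.

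Over time, 13 of the 35 were called in WT and 10 in set1Δ by edgeR, where 39.1% and 15.7% of all features were. In WT the lowest edgeR adjusted p belonged to UTR4 (1.52e-06), ADO1 (4.64e-06), SAH1 (1.73e-04) and MDE1 (1.74e-04). ADO1 and SAH1 encode the adenosine kinase and the S-adenosylhomocysteine hydrolase that clear the product of methyl transfer, and MDE1 an enzyme of methionine salvage. In set1Δ it belonged to STR3 (0.00151), HOM3 (0.00399), CYS4 (0.00421) and UTR4 (0.00448). HOM3 encodes aspartate kinase and CYS4 cystathionine β-synthase. The STR3 call was lost without 45 min (edgeR adjusted p = 0.126), the CYS4 call without 45 or 75 min and the UTR4 call without 60 min or with poly(A) reads alone (0.0606). With a spline of 3 degrees of freedom the STR3, CYS4 and UTR4 calls were all lost. Profiles differed between strains for 5 of 35, namely UTR4 (edgeR adjusted p = 7.91e-04), MDE1 (0.00571), SAH1 (0.00882), ADO1 (0.0128) and HOM2 (0.0292), near the 12.4% of all features. The UTR4 call was lost without 120 min, the SAH1 call without 75 or 120 min, and the ADO1 call without 45, 75 or 120 min. With poly(A) reads alone the UTR4 (edgeR adjusted p = 0.242), MDE1 (0.279), SAH1 (0.150) and ADO1 (0.454) calls were all lost, and so they were without 105 and 120 min (0.0573 to 0.624).

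The poly(A) tail of a messenger is known to bear on its stability and translation, and PAT-seq measures its mean length per feature. Values from at least 10 poly(A) reads were tested with limma. Of 8 members tested 0 were called, where 4 of 4281 features (0.0934%) were, all with shorter tails in set1Δ. MET10 came nearest, with a mean of 34.8 nt in WT and 28.4 nt in set1Δ, a difference of -7.48 ± 1.60 nt in the fit by time (unadjusted p = 6.76e-04, limma adjusted p = 0.0852). Its WT values ran from 27.9 nt (120 min) through a median of 35.2 to 41.7 nt (asynchronous) in 8 libraries, and its set1Δ values from 21.4 nt (15 min) through 27.2 to 40.2 nt (asynchronous) in 10, so the ranges overlapped. At the 8 times with a value in both strains, the set1Δ tail was the shorter at 8 of 8. The other differences lay between -4.52 ± 2.62 nt for MET2 and 1.73 ± 1.47 nt for MET14. The median difference was -0.97 nt over the members and -0.66 nt over all features tested.

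Tail lengths set the members apart from each other more than strain did. The median feature had 29.8 nt, with quartiles of 27.0 and 32.5 nt. SAM1 had a mean of 19.5 nt, longer than 2.85% of features, MET6 had 23.9 nt (9.67%) and MET3 25.6 nt (15.4%). MET14 had 30.9 nt, MET10 31.2 and MET2 31.6, all between the quartiles. MET5 had 35.8 nt (longer than 91.7%) and MET16 39.0 nt (97.5%). SAM2 had too few WT values for the test.

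**Figure D4:**
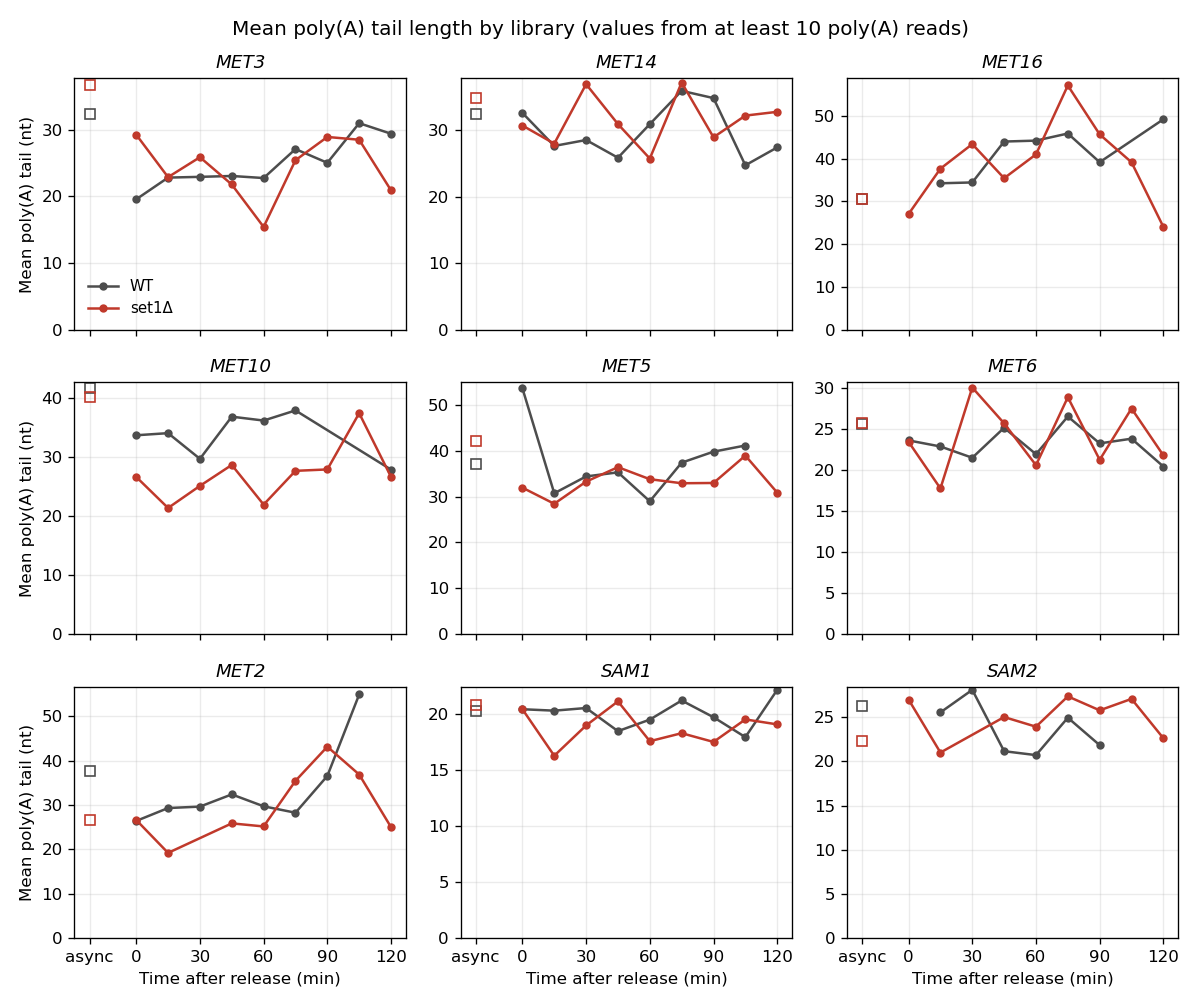
Mean poly(A) tail length in nt against time after release for 9 members, for libraries with at least 10 poly(A) reads of the gene, with WT in grey, set1Δ in red and the asynchronous cultures as open squares. MET10 values in set1Δ lie below WT at all 8 times with a value in both strains, although the ranges of the strains overlap.

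The share of a gene's reads that carried a tail also differed among members. It was 96.4% in WT and 94.1% in set1Δ for MET6, and 96.0% and 93.7% for MET5. It was 45.0% and 36.9% for MET10, and 28.5% and 29.7% for MET2, against 67.9% and 64.6% of all reads. With poly(A) reads alone, MET10 had a log2 difference between strains of 0.75 (edgeR adjusted p = 0.00554) and MET5 one of 0.81 (0.00233). The annotation places SMC2 174 bases beyond MET10 on the opposite strand and BOR1 458 bases beyond MET2 on the same strand. No source used here gives the strand setting of the counting, and reads from neighbours were not tested.

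The members moved together only in part. Over the 20 libraries the 36 pairs of members had a median Pearson r of 0.35, from -0.20 to 0.75, and the highest was MET14 with MET6. Without the set1Δ library at 45 min the median was 0.14, so this library carries much of the likeness. These r describe libraries that share strain, depth and time, and carry no test. Outside the pathway list, the 6 features most like the mean profile of the members over the 20 libraries were MXR1 (r = 0.75), LEU1 (0.71), OAC1 (0.69), BLS1 (0.64), LAF1 (0.64) and DBF20 (0.62). MXR1 encodes methionine sulfoxide reductase, LEU1 an enzyme of leucine synthesis, and OAC1 a mitochondrial carrier for oxaloacetate and sulfate. Without the set1Δ library at 45 min, MXR1 had r = 0.53, LEU1 0.67 and OAC1 0.63. At 45 min MXR1 was at 91.7 CPM in WT and 242 in set1Δ, and LEU1 at 243 and 362.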

How the data were processed

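PAT-seq was measured in 20 libraries, 10 per strain, grouped by the sample labels. The authors deposited 3 tables, whose columns carry the sample names: whole-number read counts per feature, poly(A) read counts per feature, and other values, the mean tail length in nucleotides. The tail length multiplied by its poly(A) count was whole for 99.997% of values, within 1e-06. Per the labels' protocols, each library was made from 1 µg of total RNA and sequenced with single reads of 150 bases. Per the submitters' processing notes, Bowtie2 2.2.5, Bowtie and the build sacCer3 were used, with no role given. The counter, its annotation and its strand setting are not given in the sources used here.

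The quasi-likelihood test of edgeR 4.0.16 (R 4.3.3), with TMM scaling and robust dispersion, was run on the counts of 5060 features with a mean count of at least 10, with Benjamini-Hochberg adjustment and calls at an adjusted p below 0.05. The strain difference used time point as a factor of 10 levels, which pairs libraries of equal time by label. Changes over time used a spline of 5 degrees of freedom per strain in 18 libraries. Arrest and the first 15 min were contrasts of the additive fit. CPM used TMM-scaled sizes, and likeness used log2(CPM + 1) with a pseudocount of 1. Tail lengths were tested with limma 3.58.1 where a value had at least 10 poly(A) reads behind it, in features with at least 8 values per strain. The precision of a value follows from its reads: the limit for a count of 0 is 3 reads per library, for counting error only, as reads are not shown to be independent molecules. Steps were tested on simulated data. Alternatives were DESeq2 1.42.0, limma-voom, other scaling, no filter, poly(A) reads only, other splines, left-out time points, no time factor and a poly(A)-share covariate.

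Promoter windows and coordinates come from the R64 annotation, read with Biopython 1.88. The 10 members, the 40 other pathway genes, the tests and the naming rule were chosen with earlier results of these data known. All members are named. Of the other pathway genes, up to 4 called in each direction are named by smallest p in each comparison, with the 6 features most like the members. MET8, the regulators, HOM2 among the profile differences and genes at 45 min are named after their values were seen. No sample was left out.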

Additional observations from a re-analysis of the deposited data

Results flagged for a closer look

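In set1Δ the 45 min library stood far from the other 9 for MET14 (143 CPM against 20.8 to 66.9), MET2 (146 against 22.1 to 69.5), MET3 (120 against 19.0 to 71.9), MET5 (71.9 against 21.1 to 37.2) and MET6 (603 against 149 to 238). In WT the 120 min library stood apart for MET2, with 176 CPM against 31.6 to 108 in the others, and it was also the library with the lowest poly(A) share (32.2%). For tail length, MET2 in WT at 105 min had 54.9 nt against 26.4 to 37.6 nt, from 10 poly(A) reads. MET5 in WT at 0 min had 53.7 nt against 29 to 41.2 nt, also from 10 poly(A) reads. In all, 8 of the 36 groups examined held such a library, against a nominal share of 1 in 20. The groups share libraries, so these shares cannot be compared as a test, and chance is not excluded. The 5 high values at 45 min share 1 library and are not independent of each other.

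The time profile differed between the strains for MET3 (edgeR adjusted p = 0.00917) and SAM2 (0.0195), by the test of the difference itself. Both calls were lost without the 45 min libraries. The parts of the 45 min library, of poly(A) share and of the culture in these profiles were not tested, as each strain and time has 1 library.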

How the results depend on the processing

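For the strain difference, 2 members were called as reported, and 2 to 3 when 1 time point was left out. Without the time factor, the fit with no pairing by time, the count was 2 (MET10 and MET5) and that for tails 0, so the pairing changed neither count (of other pathway genes, the MET22 and MEU1 calls were lost). Leaving out 1 time point gave 1 to 4 members changing over time in WT, 0 to 6 in set1Δ, 0 to 6 with a profile difference, and 0 for arrest, for 15 min against 0 min and for tails. The share over all features moved with the setting too. Without 45 min it was 29.7% in WT, 7.11% in set1Δ and 6.36% for the profile. With poly(A) reads only, 1 member was called in arrest (MET2), 0 over time in WT, 3 in set1Δ and 0 for the profile by edgeR. At an unadjusted p under 0.05 it was 2 in WT and 5 for the profile. Without 105 and 120 min, 0 were called in WT and 1 for the profile. With a spline of 4 or of 3 degrees of freedom, edgeR called 0 in WT, 1 in set1Δ and 0 for the profile (3 at an unadjusted p under 0.05 with either). For poly(A) reads, these splines and the other single left-out times no share over all features is given. Those counts describe the settings and are not a result particular to the members. Differences near 0 turned sign. MET3 had a log2 difference of -0.0048 with poly(A) reads and -0.17 without 45, 105 and 120 min (chosen after seeing the data), and -0.15 to 0.14 with 1 time left out. MET14 had 0.015 with poly(A) reads, 0.058 without the time factor and -0.22 to 0.084 with 1 time left out. SAM2 had -0.022 without 105 and 120 min and -0.22 without 45 min as well. Tail differences without 105 and 120 min were 1.31 nt for MET3 and 2.63 nt for MET16. With 1 time left out they were -1.13 to 0.89 nt for MET3, -2.57 to 2.63 nt for MET16 and -0.058 to 1.47 nt for MET6. The cause was not tested. Depth limits MET16, MET5 and SAM2 most, and no setting replaces a second culture.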
